A study of Mus musculus with 9 samples.

Results

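The genes described are Isl1, Nkx2-5, Mef2c, Hand1 and Hand2, transcription factors of the progenitors that lie where the heart and the foregut adjoin. They were taken as every probe set of the array whose only gene symbol was one of these names, which gave 11 probe sets of 20380 with a single symbol, and 5 genes of 12393. Isl1 had 2 probe sets, Nkx2-5 had 1, Mef2c had 5, Hand1 had 2 and Hand2 had 1. RNA came from mid-foreguts of wild-type mice, the stretch of gut tube between the pharyngeal arches and the liver, where the lungs arise. Embryos were staged by somites, the blocks of mesoderm that form in sequence along the body axis, into 3 groups of 3 arrays: 16-20 somites at embryonic day 8.5, 21-25 somites at day 9.0 and 26-30 somites at day 9.5. All groups were untreated wild types, and each replicate was a pool of between 5 and 10 foreguts, from which the heart and the neural tube had been dissected away. From each pool, 100 ng of RNA was amplified in 2 rounds and hybridised to 1 Affymetrix array, so that p-values measure the spread between pools together with their arrays.

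The second heart field is a population of splanchnic mesoderm next to the foregut that adds cells to both ends of the growing heart tube. ISL1, a LIM-homeodomain factor, marks its undifferentiated cells and is also made in motor and sensory neurons, pharyngeal endoderm and endocrine pancreas. NKX2-5, an NK homeodomain factor, MEF2C, a MADS-box factor, and the basic helix-loop-helix factors HAND1 and HAND2 act in the heart and its progenitors, and progenitors of this region, found where hedgehog and WNT signals of the foregut reach the mesoderm, are known to supply both cardiac and pulmonary mesenchymal lineages.

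On RefSeq's mouse annotation of GRCm38.p6, Isl1 lies at chr13:116298270-116309688, Nkx2-5 at chr17:26838664-26844988, Mef2c at chr13:83504017-83667079, Hand1 at chr11:57828713-57832147 and Hand2 at chr8:57320983-57324517. Promoter windows from RefSeq matched every member but Hand1. The 250 bases before the listed start are shown for Isl1, the member with the widest stage difference, and for Nkx2-5, the heart factor whose signal lay in one range at all stages. The Isl1 window is chr13:116309689-116309938 and the Nkx2-5 window chr17:26841566-26841815, both on the minus strand and written 5′ to 3′ along the gene. The Isl1 window adjoins the annotated end of its gene. The Nkx2-5 window lies inside the annotated span of its gene, before an internal start, so the windows are not alike in position. Capitals mark matches on either strand to the E-box CANNTG, bound by basic helix-loop-helix factors, to the GATA factor motif GATAA, to the NKX2-5 motif AAGTG, to the T-box motif GGTGTG, to CCAAT or to TATAAA. An E-box and AAGTG can share bases, as in CAAGTG.
Isl1: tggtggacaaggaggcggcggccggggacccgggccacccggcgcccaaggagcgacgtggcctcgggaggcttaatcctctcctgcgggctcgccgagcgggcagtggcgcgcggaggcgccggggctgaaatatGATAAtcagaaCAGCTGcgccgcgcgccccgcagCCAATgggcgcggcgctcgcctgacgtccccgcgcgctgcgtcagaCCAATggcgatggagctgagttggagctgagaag
Nkx2-5: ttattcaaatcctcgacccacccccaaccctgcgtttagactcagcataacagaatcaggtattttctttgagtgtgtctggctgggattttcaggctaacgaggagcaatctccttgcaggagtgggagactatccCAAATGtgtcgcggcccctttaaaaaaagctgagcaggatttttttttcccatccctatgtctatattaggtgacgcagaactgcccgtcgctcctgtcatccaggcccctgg
The Isl1 window held an E-box that began 103 bases before the start, a GATAA match at 114 bases, and CCAAT at 80 and at 34 bases. The Nkx2-5 window held 1 match, an E-box at 113 bases. Of 32841 such windows in the mouse table, 66.2% held an E-box, 22.6% GATAA, 40.7% AAGTG, 16.3% GGTGTG, 33.9% CCAAT and 12.4% TATAAA. A match describes the letters of these windows and not a bound site, and a missing match says only that the letters are not there.

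Signals are given on the linear scale of MAS5, Affymetrix's summary of a probe set. Differences between stages are on the log2 scale, with their SE, and come from limma on log2(signal + 26.1), which understates the difference of dim probe sets. A probe set was tested where its mean over the 9 arrays was at least 57.1, which 14266 probe sets reached, among them 7 of the 11 member probe sets. In the foregut pools the endoderm factors Foxa1 (2090 ± 913, 2250 ± 659 and 2840 ± 108 at 16-20, 21-25 and 26-30 somites, mean ± SD, n = 3) and Foxa2 (635 ± 72.4, 497 ± 42.0 and 712 ± 154) were present, while Shh and the lung field factor Nkx2-1 lay below the filter. Heart muscle RNA stood out in 1 array, called the heart-marker array. In 16-20 somites replicate 2 the summed signal of 26 heart muscle genes was 33740, against 14410 to 20030 in the other 8 arrays, and Myh6, the atrial myosin heavy chain, had 5246.8 against 305.7 to 1944.8. None of these genes was listed at 0 in any array. The heart-marker array did not stand out for heart muscle alone. It also had the highest summed signal of 11 liver genes, 35260 against 1538 to 8885 in the other arrays. For 15 foregut endoderm genes its summed signal was 18910 against 10180 to 12430. The highest signal of an array lay between 27479.8 and 32583.5 in 3 arrays, 21-25 somites replicate 1 and 26-30 somites replicates 1 and 2, and between 43791.6 and 61749.1 in the other 6. These 3 are called low-range arrays below. They also had the lowest summed signals of 9 erythroid genes, 19070, 29770 and 22050, against 33000 to 60300 in the other 6. The part of red cell RNA in the range of an array was not tested. Correlations of linear signals over probe sets with a single symbol were 0.896 to 0.978 within stages and 0.888 to 0.967 between stages. Probe sets are not independent.

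**Figure D1:**
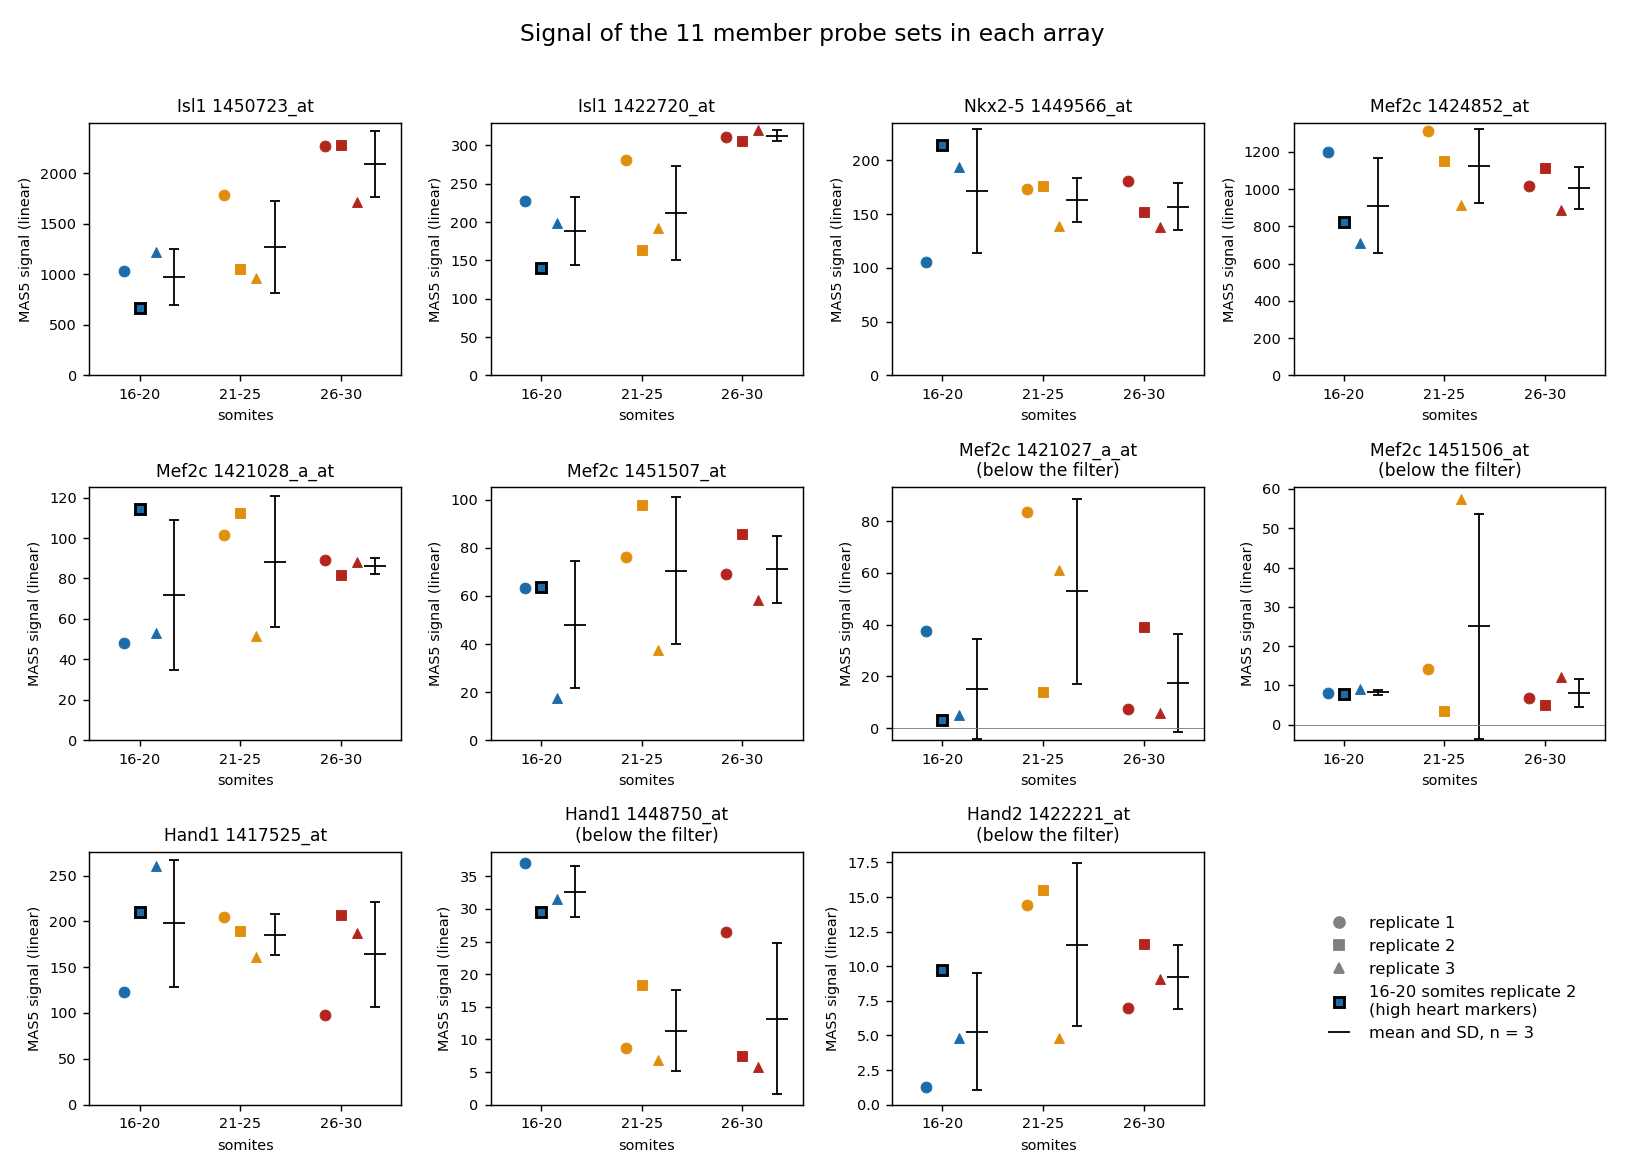
Signal of each of the 11 member probe sets on the linear MAS5 scale (vertical axes, each with its own range) in the 9 arrays by stage (horizontal axes, somites). Points are arrays, marked by replicate, the outlined square is 16-20 somites replicate 2, and the bar is the mean with its SD (n = 3). Both Isl1 probe sets have their 3 highest values at 26-30 somites or in the low-range array of 21-25 somites, and the heart-marker array is lowest for Isl1 and highest for Nkx2-5.

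The first question was how the progenitor factors stood over the whole interval, 26-30 against 16-20 somites. Isl1 signal was higher at the later stage in both of its probe sets. The difference was about 2-fold in the brighter probe set, and all 3 later arrays lay above all 3 earlier arrays in each. The tested probe sets of Nkx2-5, Mef2c and Hand1 had differences within 2 SE of 0, and Hand2 was too dim to test. No member passed the adjusted threshold of 0.05 in limma, and neither did any other probe set (percent called 0).

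Isl1 probe set 1450723_at had signals of 1033.2, 666.7 and 1219.1 in replicates 1, 2 and 3 of 16-20 somites. At 21-25 somites the signals were 1788.2, 1053.4 and 966.9, and at 26-30 somites they were 2272.3, 2276.9 and 1711.7. The first and the middle stage overlapped, with 21-25 somites replicate 1 far above its companions, and the last stage lay wholly above the first. Stage means were 973 ± 281, 1270 ± 451 and 2090 ± 325 (SD, n = 3), and the last was 2.14 times the first. The log2 difference was 1.11 ± 0.297, with a 95% interval from 0.46 to 1.76 and an adjusted p in limma of 0.357. An exact two-sided permutation test of these 3 against 3 arrays gave p = 0.1, the smallest that this design allows. In bulk tissue, more cells of a type and more RNA per cell cannot be told apart.

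Isl1 probe set 1422720_at, the dimmer of the pair, had signals of 227.8, 140.2 and 198.3 at 16-20 somites. It had 280.8, 163.0 and 192.5 at 21-25 somites, and 311.0, 306.3 and 320.7 at 26-30 somites. Here the last stage lay wholly above both earlier stages, and its 3 arrays were close together, with means of 189 ± 44.6, 212 ± 61.3 and 313 ± 7.34 (SD, n = 3). The log2 difference between 26-30 and 16-20 somites was 0.68 ± 0.248 (95% interval 0.14 to 1.22, adjusted p in limma 0.421, exact permutation p = 0.1). The probe sets of Isl1 ranked the arrays much alike, with Pearson's r of 0.926 and Spearman's rho of 0.8 over the 9 arrays. Without 16-20 somites replicate 2, r was 0.884. Both values describe arrays that share RNA and hybridisation between the probe sets.

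The arrays with the 3 highest signals of Isl1 1450723_at were the 3 low-range arrays. In 1422720_at the highest signal, 320.7, was in 26-30 somites replicate 3, which is not one of them. The array with high heart markers, 16-20 somites replicate 2, had the lowest signal of all 9 in both Isl1 probe sets, 666.7 and 140.2. Without it the log2 difference of 1450723_at was 0.87 and that of 1422720_at was 0.505. Without the 3 low-range arrays, which leaves 1 array at 26-30 somites with a spread borrowed from the other stages, the differences were 0.84 and 0.71. Without all 4 of these arrays they were 0.60 and 0.54, with adjusted p in limma of 1 for both. Under array weights, which give less weight to arrays that depart from their stage, the difference of 1450723_at was 1.10 with an adjusted p of 0.0292, in a fit that called 616 probe sets.

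**Figure D2:**
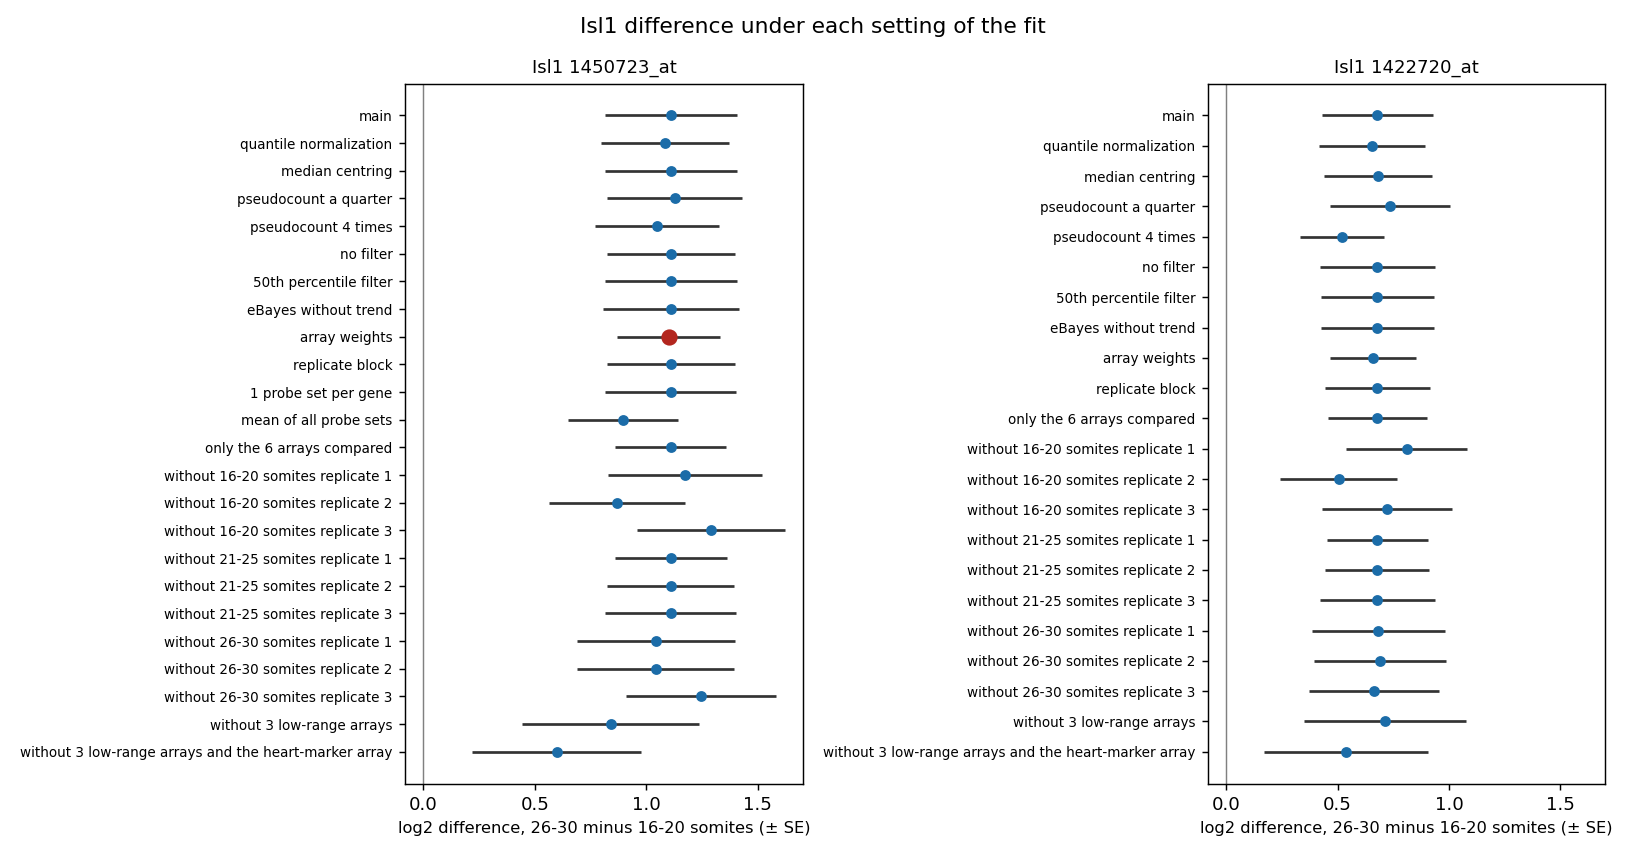
Log2 difference of Isl1 between 26-30 and 16-20 somites (horizontal axes) in its 2 probe sets under each setting of the fit (vertical axes), with bars of 1 SE. The large red point has an adjusted p under 0.05, which is found only for 1450723_at with array weights, and every point lies above 0, from 0.60 to 1.29 in 1450723_at and from 0.505 to 0.81 in 1422720_at.

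Nkx2-5, a heart progenitor and heart muscle factor, was measured by 1449566_at. Its signals were 105.8, 214.1 and 194.1 at 16-20 somites, 173.0, 176.1 and 139.4 at 21-25 somites, and 180.7, 152.3 and 138.0 at 26-30 somites. The 3 stages overlapped, and both the lowest and the highest signal of the 9 arrays were at 16-20 somites. The highest, 214.1, was in 16-20 somites replicate 2, the array with high heart markers, where Tnnt2, cardiac troponin T, had 1683.9 against 225.2 to 672.8 elsewhere. The part of heart tissue in the Nkx2-5 signal of that array was not tested. Means were 171 ± 57.6, 163 ± 20.4 and 157 ± 21.7 (SD, n = 3). The difference over the whole interval was -0.068 ± 0.263, with a 95% interval from -0.64 to 0.51 (adjusted p in limma 0.942). Its sign turned when that array was left out, to 0.097. The sign also turned without 16-20 somites replicate 3 (0.034) or without 26-30 somites replicate 3 (0.008). The sign of this small difference thus depended on single arrays.

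**Figure D3:**
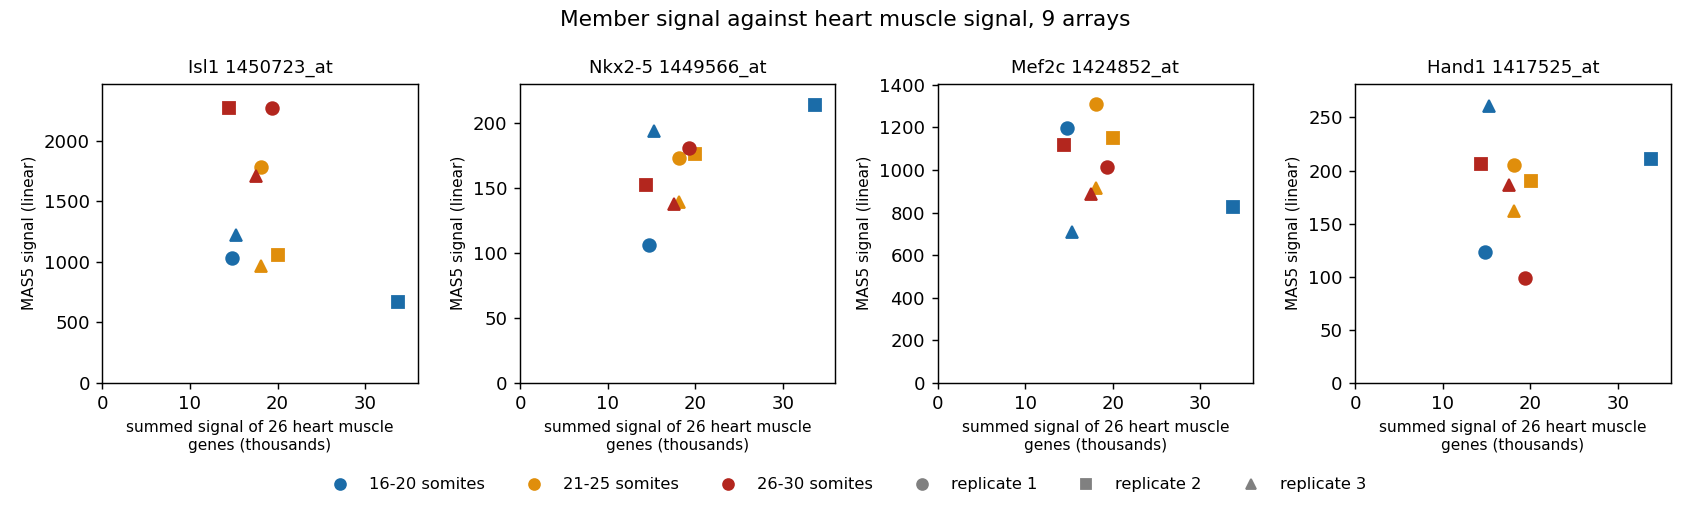
Signal of the brightest probe set of Isl1, Nkx2-5, Mef2c and Hand1 (vertical axes, linear MAS5 scale) against the summed signal of 26 heart muscle genes (horizontal axes) in the 9 arrays, coloured by stage and marked by replicate. The point at far right, 33740 in heart signal, is 16-20 somites replicate 2, which is lowest for Isl1 and highest for Nkx2-5 and lies inside the range of the others for Mef2c and Hand1.

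Mef2c, a partner of both homeodomain factors in heart progenitors and a known target of ISL1 in the second heart field, was brightest in 1424852_at. Its signals there were 1197.5, 825.7 and 709.9 at 16-20 somites, 1309.3, 1148.7 and 913.4 at 21-25 somites, and 1015.3, 1115.4 and 887.8 at 26-30 somites. All stages overlapped, and the widest spread, from 709.9 to 1197.5, was within the first. Means were 911 ± 255, 1120 ± 199 and 1010 ± 114 (SD, n = 3). The whole interval gave 0.17 ± 0.249 (95% interval -0.38 to 0.71, adjusted p in limma 0.833). This value was -0.002 without the 3 low-range arrays and -0.054 without those and the array with high heart markers.

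The other Mef2c probe sets were dim, and the 2 that were tested overlapped between stages. For 1421028_a_at the stage means were 71.8 ± 36.9, 88.4 ± 32.5 and 86.3 ± 4.01 (SD, n = 3), and its highest signal, 114.3, was in 16-20 somites replicate 2. Its difference over the whole interval was 0.26 ± 0.325 (adjusted p in limma 0.794). For 1451507_at the means were 48.1 ± 26.6, 70.5 ± 30.6 and 71.0 ± 13.8 (SD, n = 3), with a difference of 0.46 ± 0.368 (adjusted p in limma 0.665), and 0.11 without 16-20 somites replicate 3. All 3 tested Mef2c probe sets had positive differences smaller than 2 SE. Below the filter, 1421027_a_at ranged from 3.1 to 83.6 over the 9 arrays and 1451506_at from 3.4 to 57.4. Mef2c probe sets ordered the arrays less alike than those of Isl1, with r of 0.231 between 1424852_at and 1421028_a_at, 0.776 between 1424852_at and 1451507_at, and 0.682 between the dim pair.

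Hand1, a basic helix-loop-helix factor of the left ventricle and of extraembryonic and lateral mesoderm, was tested by 1417525_at. Signals were 123.4, 210.5 and 260.4 at 16-20 somites, 205.0, 190.0 and 161.5 at 21-25 somites, and 98.3, 206.5 and 186.8 at 26-30 somites. The stages overlapped, with the lowest signal at the last stage and the highest at the first. Means were 198 ± 69.3, 186 ± 22.1 and 164 ± 57.6 (SD, n = 3), and the difference over the whole interval was -0.24 ± 0.305 (95% interval -0.91 to 0.43, adjusted p in limma 0.8). In the array with high heart markers, Hand1 had 210.5, second of the 3 arrays of that stage.

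The other Hand1 probe set, 1448750_at, lay below the filter but separated the first stage from the later ones. It had 37.0, 29.5 and 31.5 at 16-20 somites, 8.7, 18.4 and 6.9 at 21-25 somites, and 26.5, 7.4 and 5.7 at 26-30 somites. Every array of 16-20 somites lay above every later array. In the fit without a filter its difference was -0.66 ± 0.224 for 21-25 against 16-20 somites (adjusted p in limma 0.453) and -0.62 ± 0.224 for 26-30 against 16-20 somites (adjusted p 0.48). The Hand1 probe sets did not order the arrays alike, with r of -0.228 and rho of 0.117 over the 9 arrays.

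Hand2, which acts in the right ventricle, the outflow tract and the pharyngeal arches, was read by 1422221_at alone, and was near the bottom of every array. Its signals were 1.3, 9.7 and 4.8 at 16-20 somites, 14.4, 15.5 and 4.8 at 21-25 somites, and 7.0, 11.6 and 9.1 at 26-30 somites. All of these lay under the pseudocount of 26.1, and the probe set stood between the 0.339th and the 15.0th percentile of its array. The difference of 26-30 from 16-20 somites in the fit without a filter was 0.18 ± 0.169 (adjusted p in limma 0.764). At this signal the stages could not be ordered.

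Of the 7 tested member probe sets, the 2 of Isl1 had an unadjusted p under 0.05 over the whole interval, where 10.4% of all tested probe sets did. The same 2 had all later arrays above all earlier ones, against 10.9% of all, and none of the 7 had all later arrays below, against 9.6%. Ordered by limma's p, 1450723_at was number 111 of the 14266 and 1422720_at number 617. The members other than Isl1 therefore gave no separation of the first from the last stage at a signal that was tested.

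**Figure D4:**
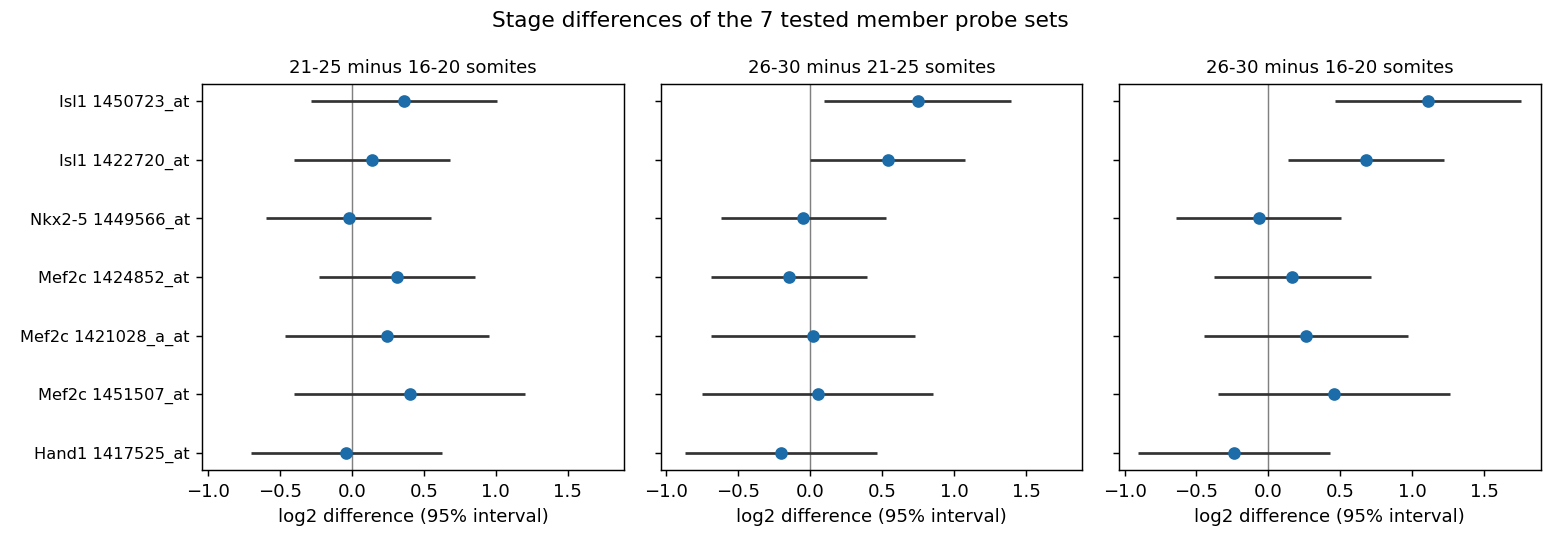
Log2 differences between stages (horizontal axes) with 95% intervals for the 7 tested member probe sets (vertical axis), for the first step, the second step and the whole interval. Intervals that leave out 0 are those of both Isl1 probe sets over the whole interval and of Isl1 1450723_at over the second step, none of which passed after adjustment.

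The steps were then compared to see when Isl1 signal was higher. From 16-20 to 21-25 somites the difference was 0.36 ± 0.297 in 1450723_at (95% interval -0.28 to 1.01, adjusted p in limma 0.715) and 0.14 ± 0.248 in 1422720_at. None of the 7 member probe sets had an unadjusted p under 0.05 in this step, where 9.95% of all did. None had its stages apart either, against 6.4% of all with the later stage wholly above and 6.97% with it wholly below. The first step of Isl1 depended on single arrays. Without 21-25 somites replicate 1, a low-range array, the differences were 0.093 and -0.058, and without 16-20 somites replicate 2, the heart-marker array, they were 0.12 and -0.033.

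From 21-25 to 26-30 somites the difference was 0.75 ± 0.297 in 1450723_at (95% interval 0.10 to 1.39, adjusted p in limma 0.998). It was the only member probe set with an unadjusted p under 0.05, against 3.72% of all. In 1422720_at the difference was 0.54 ± 0.248 (adjusted p in limma 0.998, exact permutation p = 0.1), and this was the only member probe set with the later stage wholly above the earlier, against 4.48% of all. None had it wholly below, against 4.67%. Without 21-25 somites replicate 1 the second step was 1.02 in 1450723_at and 0.74 in 1422720_at. The second step minus the first was 0.38 ± 0.514 in 1450723_at (adjusted p in limma 0.96) and 0.40 ± 0.430 in 1422720_at (adjusted p 0.951), so the steps were not told apart.

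In their brightest probe sets, Nkx2-5, Mef2c and Hand1 had step differences of either sign within 2 SE of 0. Nkx2-5 had -0.022 in the first step and -0.046 in the second, with adjusted p in limma of 0.987 and 0.998. Mef2c 1424852_at had 0.31 and -0.15 (adjusted p 0.705 and 0.998), and Hand1 1417525_at had -0.038 and -0.20 (adjusted p 0.979 and 0.998). Over the 9 arrays the brightest Isl1 probe set had r of -0.102 with Nkx2-5, 0.343 with Mef2c, -0.216 with Hand1 and 0.243 with Hand2, the last at signals under the pseudocount. Without 16-20 somites replicate 2 the value of Isl1 with Nkx2-5 was 0.314. These correlations describe 9 arrays that share stage, amplification and signal range.

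The genes whose log2 values were most like a member's over the 9 arrays were taken as the 3 with the highest Pearson's r among 9505 other genes. For Isl1 they were Ap3s1, an adaptor complex subunit (r = 0.962, and 0.938 without 16-20 somites replicate 2), Pcdh8, a protocadherin (0.957 and 0.961), and Macroh2a2, a histone variant (0.944 and 0.924). For Nkx2-5 they were Kcns2, a potassium channel subunit (0.959), Gbf1 (0.947) and Vnn3 (0.941). For Mef2c they were Lasp1 (0.943), Sec63 (0.941) and Nrbp2 (0.941), and for Hand1 they were Ucp3 (0.958), Eps8l3 (0.952) and Rnf186 (0.938). No gene of the 4 cardiopulmonary lists described below was among these 12. Those lists held only 31, 28, 18 and 17 tested genes beside the 9505 compared, so this absence says nothing about the members. The genes named are the extremes of 9505 correlations over 9 arrays, and their likeness was not tested. For Hand2, at its low signal, Twist2 (0.965), Clcn3 (0.947) and Crebrf (0.928) came closest.

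Since ISL1 is made in several tissues beside a foregut, markers of some of those tissues were read beside it. The summed signal of 18 gut and splanchnic mesenchyme genes was 12080 to 13950 at 16-20 somites, 12220 to 21840 at 21-25 and 13600 to 16420 at 26-30, with its highest value in 21-25 somites replicate 1. Of the 16 tested, 12 had positive differences over the whole interval, with a median of 0.215. Over all tested probe sets 51.6% were positive, with a median of 0.019. The summed signal of 15 motor and sensory neuron genes was 1540 to 1627, 1554 to 2030 and 1588 to 1802 at the 3 stages, with 6 of 11 tested genes positive. That of 11 pancreatic endocrine genes was 1070 to 1459, 1347 to 1850 and 1083 to 1838, with 4 of 9 tested genes positive. For 14 genes of pharyngeal arch and cranial neural crest mesenchyme it was 1637 to 2153, 1276 to 3094 and 1723 to 2044. Of the 10 of these tested, 7 had positive differences over the whole interval, with a median of 0.219. Pharyngeal endoderm had no list of its own. For 15 foregut endoderm genes the summed signal was 11780 to 18910, 10180 to 11140 and 11290 to 11930. Of the 13 of these tested, 7 had positive and 6 negative differences over the whole interval, with a median of 0.057. Of the 21 tested heart muscle genes, 8 had positive and 13 negative differences, with a median of -0.25. The part of these tissues in the Isl1 signal was not tested.

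The regulators of the second heart field and the cardiopulmonary field, without the members, numbered 39, of which 35 were on the array and 31 were tested. Over the whole interval 16 had positive and 15 negative differences with a median of 0.037, and none passed the adjusted threshold. For this list and those below, the values over all tested probe sets were 51.6% positive and a median of 0.019. Tbx5, a T-box factor of the posterior second heart field and the lung mesenchyme, had signals of 132.5, 136.7 and 79.6 at 16-20 somites, 225.3, 27.9 and 192.2 at 21-25, and 313.0, 246.2 and 359.8 at 26-30. Its last stage lay wholly above both earlier ones, as in Isl1 1422720_at but not in 1450723_at, with a difference of 1.24 ± 0.478 over the whole interval (adjusted p in limma 0.425) and 1.20 ± 0.478 over the second step. Zfpm2, the GATA cofactor FOG2, had means of 117, 300 and 414 and a difference of 1.565 ± 0.428 (adjusted p in limma 0.362). Its other probe set, which was below the filter with a mean of 31.5, gave -0.054. Gata4 (0.21 ± 0.242), Gata6 (-0.125 ± 0.220) and Tbx20 (-0.17 ± 0.247) had differences within 1 SE of 0. On the lower side, Irx3, an Iroquois homeobox factor, had -0.71 ± 0.261 (adjusted p in limma 0.421) and Hhex -0.83 ± 0.352 (adjusted p 0.454). Hhex was highest, 920.6, in the array with high heart markers, where the summed signal of 11 liver genes was also highest, 35260, and without that array its difference was -0.36.

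Among 40 genes of the signals that act on this field, 28 were tested, with 21 positive and 7 negative differences over the whole interval and a median of 0.27. Of these, 9 had the last stage wholly above the first and 1 wholly below, where 10.9% and 9.6% of all tested probe sets did. Aldh1a2, the enzyme that makes retinoic acid, had means of 621, 799 and 1310 (difference 1.05 ± 0.399, adjusted p in limma 0.424), and its lowest signal, 340.7, was in the same array as that of Isl1. Its difference was 0.69 without that array, and -0.006 without that array and the 3 low-range arrays. Pdgfra, a receptor of mesenchyme, had means of 1390, 2560 and 2580 (0.87 ± 0.286, adjusted p in limma 0.390), while its other probe set gave -0.074. Hhip, a hedgehog target and antagonist, had 0.66 ± 0.305 (adjusted p in limma 0.484), and 0.29 without the heart-marker array. Another tested probe set of Hhip gave 1.136. Cyp26a1, which degrades retinoic acid, had -0.77 ± 0.357 (adjusted p in limma 0.482), and -0.44 without 26-30 somites replicate 1. Wnt2, a ligand of the lung mesenchyme, had means of 1130, 670 and 1010 (-0.14 ± 0.226), and Bmp4 304, 337 and 434 (0.47 ± 0.345). Shh and Fgf10 were below the filter.

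Partners and cofactors of the members numbered 24, of which 18 were tested, with 14 positive and 4 negative differences and a median of 0.15. Of the E proteins that pair with HAND factors, Tcf4 had the highest difference of the list, with means of 281, 1140 and 1130 (1.76 ± 0.682, adjusted p in limma 0.425, with 0.43 to 0.90 in its other tested probe sets). Tcf12 had means of 3100, 4150 and 4740 (0.62 ± 0.280, adjusted p in limma 0.473, with 0.33 in another tested probe set). Tcf3 had a difference of 0.084 ± 0.287. Tcf4 had its 3 highest signals, 2507.2, 1468.5 and 1457.5, in the 3 low-range arrays, as Isl1 1450723_at did. The same arrays held the 3 highest signals of Zfpm2, Pdgfra, Aldh1a2, Tcf12, Kdm6a and Mef2a in their brightest probe sets. They did not for Tbx5, Hhip, Msc, Lhx9, Bmp4 or Mef2d. Ldb1, the cofactor that LIM-homeodomain factors bind, was below the filter, and Ldb2 had -0.35. Kdm6a, a histone demethylase, had 0.64 ± 0.384 (0.175 in another tested probe set), and Ssbp4 -0.47 ± 0.257.

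Of 32 paralogues of the members, 17 were tested, with 10 positive and 7 negative differences and a median of 0.018. Isl2, the nearest relative of Isl1, had a difference of -0.004 over the whole interval. Msc, musculin, a basic helix-loop-helix factor, had the highest difference of the list, with signals of 488.0, 88.0 and 674.5 at 16-20 somites, 453.8, 574.4 and 749.8 at 21-25, and 981.0, 1122.4 and 1361.7 at 26-30, with the heart-marker array lowest, as in both Isl1 probe sets, and the last stage wholly above the rest. Its difference was 1.76 ± 0.525 (adjusted p in limma 0.373), and 0.96 without the heart-marker array. Twist1, a mesenchymal factor of the same class, had the lowest difference, with means of 263, 347 and 130 (-0.90 ± 0.268, adjusted p 0.374), with the last stage wholly below both others. Lhx9 had 0.85 ± 0.428 (0.54 without 16-20 somites replicate 3 and 1.37 without the heart-marker array) and Lhx6 -0.86 ± 0.370. Another tested probe set of Lhx9 gave 0.156, and a probe set of Lhx6 below the filter gave 0.25. Mef2a (0.35 ± 0.311) and Mef2d (0.51 ± 0.240) had positive differences as Mef2c did, though other tested probe sets gave -0.087 for Mef2a and 0.03 for Mef2d. Smyd1, a target of MEF2C in heart muscle, had 0.095 ± 0.354.

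**Figure D5:**
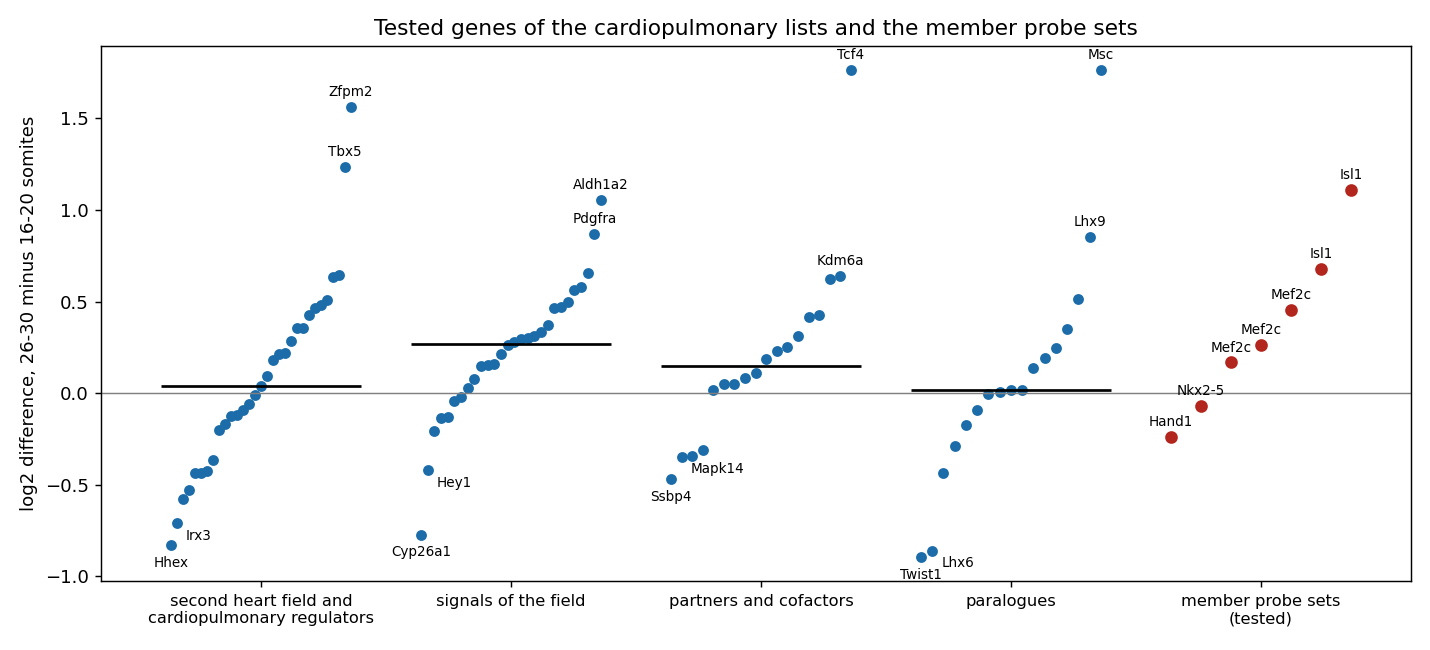
Log2 difference between 26-30 and 16-20 somites (vertical axis) of each tested gene of the 4 lists, ordered within a list, and of the 7 tested member probe sets in red. Lines are list medians, which run from 0.018 for paralogues to 0.27 for signals, and the widest genes at either end are named. No gene passed the adjusted threshold.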

How the data were processed

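The authors deposited linear intensity values made with MAS5, per the submitters' processing notes, for 9 arrays of 22690 probe sets. Of MAS5, the version, the target of scaling and the detection calls were not given in the sources used here. Trimmed by 2% at either end, array means were 499.9 to 500.0, as after scaling to one target. Array medians lay within 0.36 log2, under the limit of 0.5, so the deposited intensities were used as they stood. Probe sets with 1 gene symbol (20380) were kept, several (691) or none (1555) and 64 controls left out. Stage means were fitted with limma 3.58.1 in R 4.3.3 (lmFit, eBayes with trend) to log2(intensity + 26.1), the 20th percentile, over the 14266 probe sets at or above the 30th percentile of mean signal. Tests were two-sided, with Benjamini-Hochberg adjustment over all of them. On simulated data, the fit recovered 22.2%, 60.6%, 80.2% and 92.6% of differences of 1, 1.5, 2 and 3 log2 at the adjusted threshold. Lists take the brightest probe set of each gene. Named genes were all member probe sets, the 3 genes most like each, up to 4 tested genes of each list with the widest difference over the whole interval, and 14 further genes of the field. Isl2, Ldb2, Foxa1, Foxa2 and the heart genes were named after their values were seen. The members and lists were chosen with earlier results of these data known. Same-numbered replicates did not pair: 2 of 9 correlations of their deviations were over 0.1. The number of arrays limits the precision. The alternatives are those of the closing section.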

Additional observations from a re-analysis of the deposited data

How the results depend on the processing

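Of 967 values of single probe sets under up to 23 alternatives each, 924 kept direction and side of the threshold, 6 came to pass it and 37 turned direction. Array weights changed most: they called 616 probe sets over the whole interval, 1 in the second step and 144 for any stage difference, where the reported fit called 0, and Isl1 1450723_at had 1.10 over the whole interval with them. Leaving out one array at a time gave 0 to 1 calls over the whole interval (1 without 26-30 somites replicate 3). It gave 0 to 3 in the first step, 0 to 1 for the difference of the steps and 0 to 1 for any difference, each maximum without 21-25 somites replicate 3. Such ranges crossed 0 for Nkx2-5 (-0.34 to 0.097 whole, -0.29 to 0.14 first, -0.14 to 0.030 second), Hand1 1417525_at (-0.51 to 0.040, -0.305 to 0.165, -0.37 to 0.078), the first step of Isl1 1422720_at (-0.058 to 0.29) and Smyd1 (-0.22 to 0.35). With array weights the second step was 0.15 for Nkx2-5 and 0.058 for Mef2c 1424852_at. Without the 3 low-range arrays, directions turned for Mef2c 1424852_at (-0.002), the first step of Isl1 1422720_at (-0.058), the second of Hand1 (0.080), Tbx20 (0.070), Wnt2 (0.018) and Smyd1 (-0.33). Without these and 16-20 somites replicate 2 they turned for Mef2c (-0.054), Hand1 (0.041 whole, 0.080 second), the first step of Isl1 (-0.15 in 1450723_at, -0.23 in 1422720_at) and of Nkx2-5 (0.10), Aldh1a2 (-0.006), Cyp26a1 (0.074), Gata6 (0.047), Tbx20 (0.17), Wnt2 (0.155) and Smyd1 (-0.27). The cause was not tested. With the replicate block, Isl1 1450723_at had 1.11 over the whole interval (adjusted p in limma 0.351), and the block changed no call. With 3 arrays a stage, and most member signals dim, differences under about 2 SE could not be resolved. The wider differences of Isl1 over the whole interval did not pass the adjusted threshold in the reported fit either. MAS5 detection calls were not used here.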
